A study of Homo sapiens with 12 samples.

Results

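The protein-coding mRNAs of the spliceosome and of the main families of pre-mRNA splicing factors were followed through pull-downs of 2 biotinylated microRNAs. They were taken by gene symbol, as every probe whose platform symbol begins with SF3A, SF3B, SNRP, SRSF, HNRNP, PRPF, LSM and a digit, or U2AF. After 3 probes of the pseudogenes HNRNPA1P33, HNRNPA3P1 and HNRNPA1P10 were set aside, the rule gave 115 probes of 15329, and 77 genes of 9647. The rule itself uses symbols and no measured value, but it was chosen with earlier results of these data known. HEK293T cells, a transformed line of human embryonic kidney origin, received 200 pmol of a synthetic duplex of miR-199a-5p or of miR-424-3p that carried biotin, and were harvested after 24 hours. RNA held by streptavidin beads (the pull-down) and RNA of cells given the same duplex (the input) was hybridised to Illumina HT-12 arrays, with 3 arrays for each of the miR-199a-5p pull-down, the miR-199a-5p input, the miR-424-3p pull-down and the miR-424-3p input. All 4 groups thus carried a transfected duplex, added from outside rather than made by the cell, and mock-transfected cells were not analysed here. Of markers of the line, VIM (vimentin) had a mean input level of 13.84 and KRT8 and KRT18 (epithelial keratins) had 8.857 and 8.567 on the log2 scale of the deposited values, and 6 of 9 were listed. Of the markers of blood 0 of 5 were listed, of fibroblasts 1 of 5 (COL1A1, 7.957) and of hepatocytes 1 of 2 (ALB, 8.414).

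The spliceosome removes introns from pre-mRNA. It is built from small nuclear RNAs that each carry a ring of Sm or LSm proteins together with proteins of their own, and it recognises the splice donor through U1, the branch point through U2 with the SF3A and SF3B subunits, and the splice acceptor through U2AF. The PRPF proteins belong to later assemblies and remodel the complex, while the SRSF and HNRNP proteins bind pre-mRNA and raise or lower the use of nearby splice sites. A microRNA guides Argonaute proteins to mRNAs, for which pairing of its seed, bases 2 to 8, is the usual requirement, so an mRNA held by the duplex is expected to gain in the pull-down over the input.

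No sequence of the synthetic duplexes is given in the sources used here, and a legend in the study's supplement gives miR-199b-5p. The mature sequences of both microRNAs named in the labels are shown instead. They were read from RefSeq (GRCh38.p14), 5′ to 3′, with the seed in capitals, and the seeds of the 2 microRNAs differ.
hsa-miR-199a-5p: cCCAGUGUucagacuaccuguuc
hsa-miR-424-3p: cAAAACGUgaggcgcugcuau
The miR-199a-5p sequence of 23 bases lies on the minus strand at chr19:10817469-10817491 (MIR199A1) and at chr1:172144592-172144614 (MIR199A2). The miR-424-3p sequence of 21 bases lies on the minus strand at chrX:134546644-134546664 (MIR424).

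The values were normalized log2 signals. A level below is such a signal, a fold change is the mean of the 3 pull-down arrays minus that of the 3 input arrays, and values after ± are standard errors of that fold change. Since the arrays were normalized to one another, higher and lower mean higher or lower relative to the bulk of probes, and the array medians lay between 9.149 and 9.208. Arrays of one group correlated at r = 0.983 or more across all probes and at 0.985 or more across the 115 splicing probes. The splicing mRNAs were abundant, with a median input level of 11.42 over the 77 genes, against 9.376 over all genes, and their mean levels ran from 7.73 to 14.33. A gene with several probes was represented by its brightest one. With RNA of whole cultures, fewer cells holding an mRNA and less of it per cell cannot be told apart, and 3 arrays a group limit the precision of each value.

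The miR-199a-5p pull-down against its input asks which of these mRNAs gained or lost in the pull-down. No pull-down without a duplex was analysed, so RNA held by the beads alone cannot be told apart in either pull-down. More splicing mRNAs were lower than higher in the pull-down. Of the 115 probes, 48 (41.7%) were lower, where 25.9% of all probes were, and 18 (15.7%) were higher, where 25.6% of all probes were (limma, adjusted p under 0.05), and 49 passed neither test. By gene, 29 of 77 (37.7%) were lower against 20.1% of all genes, and 14 (18.2%) were higher against 29.9%. By brightest probe the largest falls were in SF3B6, a branch point protein of the U2 particle (-2.04), and HNRNPA1, a repressor of exon inclusion (-1.62). SRSF3, a small SR protein, followed at -1.51. On the other side HNRNPDL, a relative of HNRNPD, at 1.10, and HNRNPU, a nuclear scaffold protein, at 0.88, rose the most. The median fold change was -0.15 over the 115 probes and 0.0006 over all probes. On the 3 pull-down arrays the median deviation of the splicing probes from the input mean was -0.21, -0.20 and -0.19, against -0.04, 0.02 and 0.01 on the input arrays, so no single array carried the shift. Among probes with a mean of at least 9, 41 of 91 (45.1%) were lower against 28.2%, and 17 (18.7%) were higher against 31.2%. Requiring a fold change of at least 1.5 as well left 24 probes (20.9%) lower against 11.6% of all probes, and 7 (6.09%) higher against 10.7%. By gene it left 13 (16.9%) lower against 7.80% of all genes, and 6 (7.79%) higher against 12.5%.

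In the miR-424-3p pull-down the splicing mRNAs were also more often lower than higher. Of the 115 probes, 53 (46.1%) were lower, where 28.8% of all probes were, and 26 (22.6%) were higher, where 26.3% of all probes were (limma, adjusted p under 0.05), and 36 passed neither test. By gene, 32 of 77 (41.6%) were lower against 25.7% of all genes, and 19 (24.7%) were higher against 30.3%. Ranked by brightest probe, SF3B6 again had the largest fall, at -2.81, followed by SNRPB2, a protein of the U2 particle, at -1.56. SNRPA, a protein of the U1 particle, at 1.79, and HNRNPUL1, a relative of HNRNPU, at 1.29, led the mRNAs that were higher. The median fold change was -0.26 over the 115 probes and -0.02 over all probes. The median deviations were -0.22, -0.26 and -0.27 on the pull-down arrays, against -0.02, 0.03 and 0.01 on the input arrays. Among probes with a mean of at least 9, 43 of 91 (47.3%) were lower against 33.8%, and 21 (23.1%) were higher against 31.6%. With a fold change of at least 1.5 as well, 29 probes (25.2%) were lower against 13.9% of all probes, and 16 (13.9%) were higher against 12.8%. By gene, 18 (23.4%) were then lower against 11.7% of all genes, and 11 (14.3%) were higher against 15.3%.

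**Figure D1:**
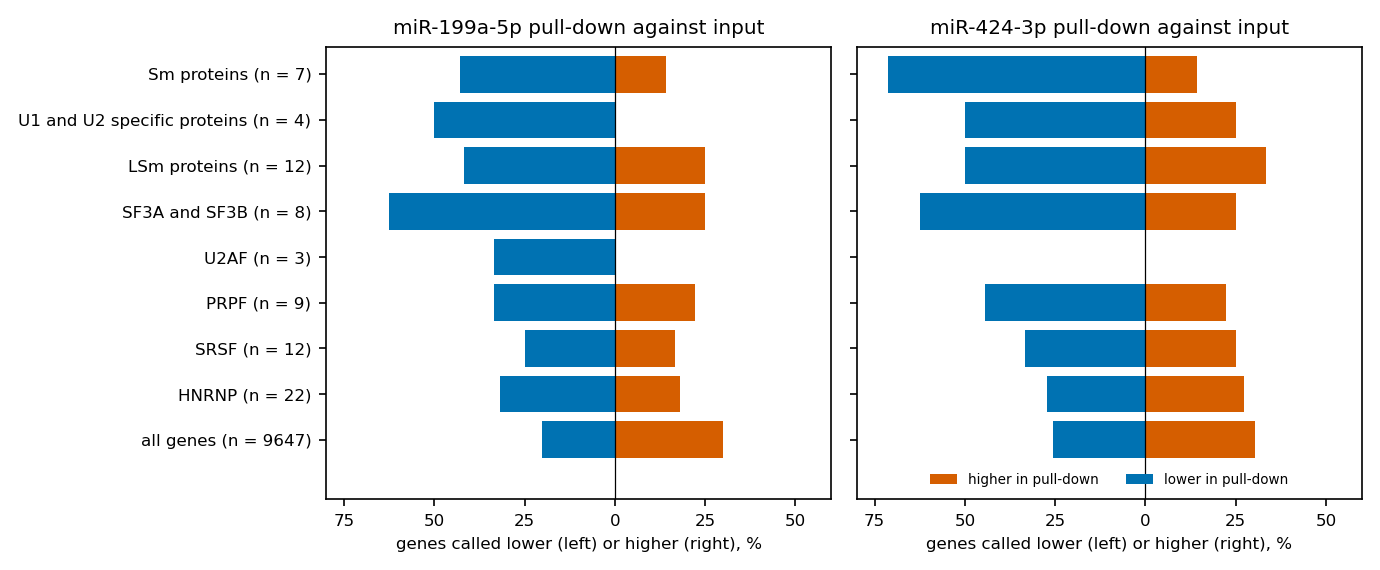
Percent of genes of each class called lower (left of 0) or higher (right of 0) in the miR-199a-5p pull-down (left panel) and the miR-424-3p pull-down (right panel) against input, with n the number of genes and all genes in the bottom row. The SF3A and SF3B class has 5 of 8 genes lower in each panel, the Sm proteins 5 of 7 with miR-424-3p, and the HNRNP class 6 of 22 in each direction with miR-424-3p.

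Both pull-downs had calls in the same direction for many members. Of the 115 probes, 34 (29.6%) were lower in both, where 15.5% of all probes were, and 9 (7.83%) were higher in both, where 11.7% of all probes were. At the level of genes, 21 (27.3%) were lower in both, where 11.5% of all genes were, and 8 (10.4%) were higher in both, where 14.1% were. Opposite calls were near the share of all genes, with 3 genes (3.90%) called higher for miR-199a-5p but lower for miR-424-3p, against 3.30% of all genes, and 3 (3.90%) the other way, against 2.76%. These gene calls rest on the brightest probes. The 21 genes were SNRPB, SNRPD2, SNRPG, SNRPB2, SNRPC, LSM1, LSM3, LSM5, LSM7, LSM10, SF3B2, SF3B5, SF3B6, PRPF4, PRPF6, PRPF38A, SRSF12, HNRNPA1, HNRNPA3, HNRNPH1 and HNRNPH2. The 8 were SNRPD3, LSM6, LSM11, LSM14A, SF3A3, PRPF8, HNRNPL and HNRNPUL1. No array was shared between the pull-down comparisons, but both were fitted with one estimate of the spread.

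The difference between the fold changes, miR-199a-5p minus miR-424-3p, asks which mRNAs stood higher in one pull-down than in the other, each relative to its own input. Of the 115 probes, 21 (18.3%) stood higher with miR-199a-5p, where 18.8% of all probes did, and 28 (24.3%) stood higher with miR-424-3p, where 18.0% of all probes did, and 66 passed neither test (limma, adjusted p under 0.05). By gene the counts were 16 and 16 of 77, each 20.8%, against 20.9% and 18.1% of all genes. SNRPB2 at 1.13, SF3B3 at 1.12 and SNRPF at 1.02 led the genes that stood higher with miR-199a-5p, while SNRPA at -2.07, SRSF3 at -1.43, SF3B4 at -1.11 and SRSF8 at -1.07 led those that stood higher with miR-424-3p. With array weights the count higher with miR-199a-5p was 32, where 23.6% of all probes were called, and with a fold of at least 1.5 the count higher with miR-424-3p was 17 (14.8%), against 12.5% of all probes.

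**Figure D2:**
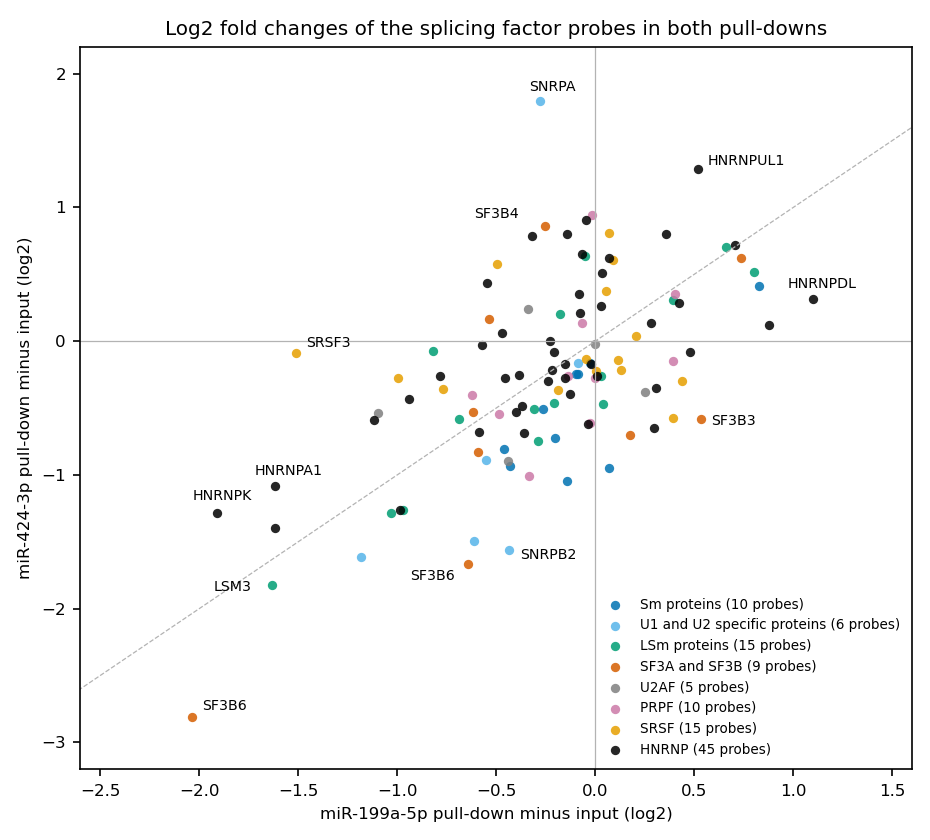
Log2 fold change of each of the 115 probes in the miR-199a-5p pull-down (horizontal) and in the miR-424-3p pull-down (vertical), coloured by class, with grey lines at 0 and the dashed line where both are equal. The lower left area holds the probes lower in both, with SF3B6 farthest out, and SNRPA stands alone at the top with 1.79 for miR-424-3p and -0.28 for miR-199a-5p.

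No splicing probe was called between the inputs. Between the miR-199a-5p input and the miR-424-3p input the differences ran from -0.43 to 0.54, and 0 of 115 probes passed in either direction in the two-sided limma test, where 0.00652% of all probes were higher and 0.0130% were lower. By brightest probe 0 of 77 genes passed in either direction, against 0.0104% of all genes each way. At an unadjusted limma p under 0.05, 8 of the 115 splicing probes were higher and 3 were lower, against 635 and 647 of all 15329 probes. With array weights 2 splicing probes were higher, and 1.04% of all probes.

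The Sm proteins form the ring on the U1, U2, U4 and U5 small nuclear RNAs. Of 7 genes, 3 were lower and 1 was higher with miR-199a-5p, and 5 were lower and 1 was higher with miR-424-3p, with medians of -0.10 and -0.51. Of all genes, 20.1% were lower and 29.9% higher with miR-199a-5p, and 25.7% were lower and 30.3% higher with miR-424-3p. The counts of single classes were not tested against these shares. SNRPF had levels of 13.99, 13.90 and 13.89 in the miR-199a-5p pull-down, against 14.01, 13.83 and 13.73 in its input, a fold change of 0.07 ± 0.0932 (limma adjusted p = 0.554). In the miR-424-3p pull-down SNRPF had 12.95, 12.98 and 12.78, against 13.83, 13.81 and 13.93 in its input, a fold change of -0.95 ± 0.0932 (adjusted p = 1.26e-06). The arrays overlapped for miR-199a-5p and lay wholly apart for miR-424-3p, and the difference was 1.02 ± 0.132 (adjusted p = 8.34e-05). The second SNRPF probe gave the same contrast, at -0.14 and -1.05. SNRPG had fold changes of -0.43 ± 0.0969 and -0.93 ± 0.0969 with miR-199a-5p and miR-424-3p, and SNRPB, which makes the B and B′ proteins, had -0.46 ± 0.103 and -0.80 ± 0.103, while its second probe (-0.20 and -0.73) was called only with miR-424-3p. SNRPD3 went the other way. Its levels were 9.75, 9.84 and 9.68 in the miR-199a-5p pull-down, against 8.76 to 9.03 on the 3 arrays of its input, a fold change of 0.82 ± 0.125 (adjusted p = 0.000106), and 9.70, 9.86 and 9.70 in the miR-424-3p pull-down, against 9.65, 9.13 and 9.23 in its input, a fold change of 0.41 ± 0.125 (adjusted p = 0.012). In both cases every pull-down array lay above every input array. SNRPD2, the brightest of the class, was lower by smaller amounts, at -0.26 and -0.51, and the first of these missed the threshold when the first miR-199a-5p input array was left out (adjusted p = 0.0503). SNRPD1 passed neither test (-0.09 and -0.25). SNRPN, a close copy of SNRPB whose signal may not be separable from it on a probe, lay near the bottom of the scale at levels of 7.59 to 8.02 and was called only with miR-424-3p (-0.25).

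Of the proteins specific to U1 or U2, SNRPA and SNRPC belong to U1 and SNRPA1 and SNRPB2 to U2. SNRPA, which binds a loop of U1 RNA, had levels of 9.69, 10.08 and 10.46 in the miR-199a-5p pull-down, against 10.19, 10.46 and 10.42 in its input. That fold change of -0.28 ± 0.146 did not pass (limma adjusted p = 0.126, 95% interval -0.59 to 0.03). In the miR-424-3p pull-down SNRPA had 12.30, 12.30 and 12.32, against 10.53, 10.56 and 10.45 in its input, a 3.47-fold rise (1.79 ± 0.146, adjusted p = 2.2e-07). All 3 miR-424-3p pull-down arrays were thus more than a log2 unit above any of the other 9, and the difference between the microRNAs was -2.07 ± 0.207 (adjusted p = 5.51e-06), the largest of all members. SNRPB2, a partner of SNRPA1 on U2 RNA, moved in the opposite sense. It had 12.13, 12.16 and 12.03 in the miR-199a-5p pull-down, against 12.48, 12.59 and 12.55 in its input (-0.43 ± 0.0811, adjusted p = 0.000464), and 11.09, 11.07 and 10.95 in the miR-424-3p pull-down, against 12.57, 12.65 and 12.58 in its input (-1.56 ± 0.0811, adjusted p = 1.53e-08). The groups did not overlap in either case, and the second SNRPB2 probe gave -0.61 and -1.49. SNRPC, which steadies U1 on the splice donor, was lower on both of its probes in both pull-downs, with -0.55 and -0.89 on the brighter probe and -1.18 and -1.61 on the dimmer one. SNRPA1, the brightest of the class, passed neither test (-0.08 and -0.16).

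The LSm proteins make the ring on U6 RNA (LSM2 to LSM8), the cytoplasmic ring that promotes mRNA decapping (LSM1 with LSM2 to LSM7) and part of the ring on U7 RNA, which serves histone mRNA processing (LSM10 and LSM11). Of 12 genes, 5 were lower and 3 higher with miR-199a-5p, and 6 were lower and 4 higher with miR-424-3p, with medians of -0.19 and -0.36. Over all genes the shares were 20.1% lower and 29.9% higher with miR-199a-5p, and 25.7% and 30.3% with miR-424-3p. LSM3 had levels of 12.44, 12.52 and 12.28 in the miR-199a-5p pull-down, against 13.39, 13.34 and 13.41 in its input (-0.97 ± 0.0931, limma adjusted p = 1.28e-06). With miR-424-3p, LSM3 had 12.26, 12.01 and 12.06 in the pull-down, against 13.36, 13.45 and 13.32 in its input (-1.26 ± 0.0931, adjusted p = 1.25e-07). The second LSM3 probe was lower still, at -1.63 and -1.82, and on both probes the pull-down and input arrays lay apart. The U7 proteins split. LSM10 had 10.16, 10.02 and 10.09 in the miR-199a-5p pull-down, against 11.42, 11.15 and 10.80 in its input (-1.03 ± 0.136), and 10.00, 9.80 and 9.70 in the miR-424-3p pull-down, against 11.27, 11.03 and 11.07 in its input (-1.29 ± 0.136). LSM11, at the dim end with levels of 7.73 to 8.33, was higher by 0.39 ± 0.107 and 0.31 ± 0.107. LSM6 was higher in both, by 0.66 ± 0.152 and 0.70 ± 0.152, as was LSM14A, a protein of decapping bodies rather than of an LSm ring on snRNA, by 0.80 ± 0.0873 and 0.52 ± 0.0873. LSM7 (-0.69 and -0.58), LSM1 (-0.31 and -0.51) and the brighter probe of LSM5 (-0.29 and -0.74) were lower in both, the second LSM5 probe (0.04 and -0.47) was lower only with miR-424-3p, LSM8 only passed with miR-424-3p (-0.21 and -0.46), and LSM2 (-0.18 and 0.20) and LSM4 (0.03 and -0.26), the brightest of the class, passed neither test. By its brighter probe LSM12 was higher only with miR-424-3p (-0.05 and 0.64), with a difference of -0.69 ± 0.159 (adjusted p = 0.00345). The second LSM12 probe was instead lower with miR-199a-5p and not called with miR-424-3p (-0.82 and -0.08), with a difference of -0.74 that also passed (adjusted p = 0.0467). Of the 12 genes 10 passed no test of the difference, LSM12 and LSM5 being the exceptions.

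**Figure D3:**
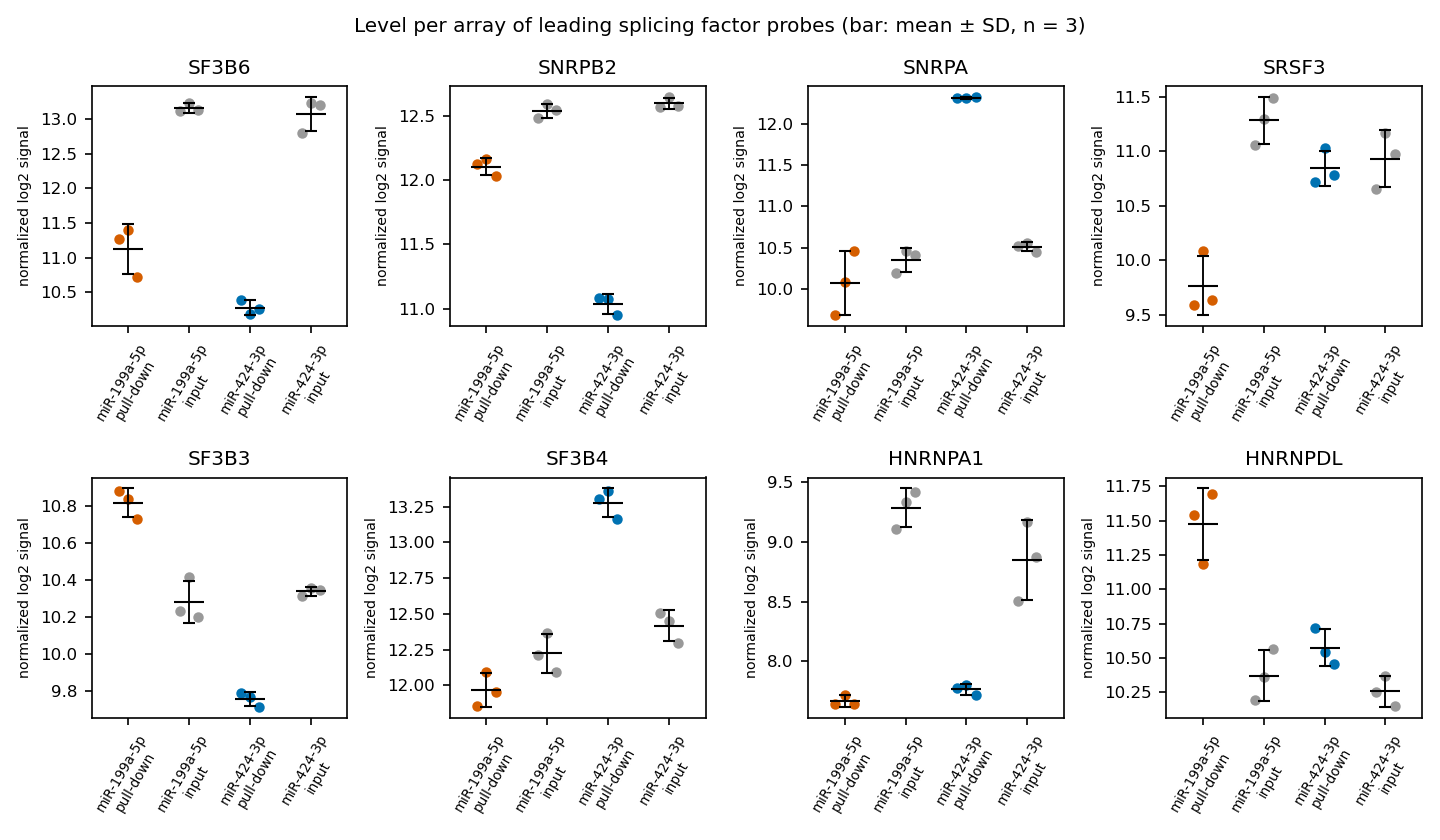
Normalized log2 signal on each of the 12 arrays (points, 3 per group) for the brightest probe of 8 genes, with the mean and SD as bars and a vertical axis of its own for each gene that does not start at 0. SF3B6 and HNRNPA1 are lower in both pull-downs, SNRPB2 is lowest with miR-424-3p, SNRPA is higher only with miR-424-3p, SRSF3 is lower only with miR-199a-5p, and SF3B3 and SF3B4 show opposite patterns.

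The SF3A and SF3B subunits hold U2 on the branch point, and they held the largest fold change of all members. Of 8 genes, 5 were lower and 2 higher with each microRNA, with medians of -0.39 and -0.56. Over all genes the shares were 20.1% lower and 29.9% higher with miR-199a-5p, and 25.7% and 30.3% with miR-424-3p. SF3B6, whose protein lies close to the branch point adenosine, had levels of 11.28, 11.39 and 10.72 in the miR-199a-5p pull-down, against 13.12, 13.24 and 13.13 in its input, 4.10-fold lower (-2.04 ± 0.157, limma adjusted p = 2.22e-07). With miR-424-3p it had 10.39, 10.18 and 10.25 in the pull-down, against 12.80, 13.23 and 13.21 in its input, a larger fall (-2.81 ± 0.157, adjusted p = 2.38e-08). Every pull-down array was more than a log2 unit below every input array. The second SF3B6 probe was also lower in both, but by less, at -0.64 and -1.66. The mRNAs of the complex did not move as 1 unit. SF3B3, a propeller-shaped scaffold subunit, had 10.88, 10.84 and 10.73 in the miR-199a-5p pull-down, against 10.23, 10.41 and 10.20 in its input (0.53 ± 0.0842, adjusted p = 0.000149), and 9.79, 9.76 and 9.71 in the miR-424-3p pull-down, against 10.31, 10.35 and 10.35 in its input (-0.58 ± 0.0842, adjusted p = 4.37e-05). SF3B3 thus rose with one microRNA and fell with the other, with a difference of 1.12 ± 0.119 (adjusted p = 1.91e-05). SF3B4, an RNA-binding subunit and the brightest of the class, did the reverse, with 11.86, 12.09 and 11.96 in the miR-199a-5p pull-down, against 12.21, 12.36 and 12.10 in its input (-0.25 ± 0.101, adjusted p = 0.0475), and 13.30, 13.36 and 13.17 in the miR-424-3p pull-down, against 12.50, 12.45 and 12.30 in its input (0.86 ± 0.101, adjusted p = 6.24e-06). The difference for SF3B4 was -1.11 ± 0.143 (adjusted p = 3.79e-05), while the small fall with miR-199a-5p missed the threshold after cyclic loess (adjusted p = 0.103) and when 1 of several arrays was left out (adjusted p up to 0.196).

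SF3B1, the largest subunit and the one that clasps the branch point helix, had 11.40, 11.29 and 11.39 in the miR-199a-5p pull-down, against 10.67, 11.18 and 11.71 in its input, which overlap (0.18 ± 0.211, limma adjusted p = 0.516). In the miR-424-3p pull-down it had 10.09, 10.09 and 10.02, against 10.33, 11.00 and 10.97 in its input, which do not overlap (-0.70 ± 0.211, adjusted p = 0.0111). The difference of 0.87 ± 0.298 passed (adjusted p = 0.0331), but not after cyclic loess (adjusted p = 0.0506) nor in most fits that left out 1 array (adjusted p up to 0.082). SF3A3 was higher in both pull-downs, by 0.74 ± 0.102 and 0.62 ± 0.102, and SF3A2 was lower only with miR-199a-5p (-0.54 ± 0.117 and 0.16 ± 0.117). SF3B2 (-0.62 and -0.53) and SF3B5 (-0.59 and -0.83) were lower in both.

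U2AF reads the splice acceptor, with U2AF2 on the pyrimidine tract and U2AF1 on the AG that follows. By brightest probe, U2AF2 had 12.39, 12.59 and 12.68 in the miR-199a-5p pull-down, against 13.01, 12.83 and 12.83 in its input (-0.34 ± 0.097, limma adjusted p = 0.00941), and 13.18, 13.04 and 13.06 in the miR-424-3p pull-down, against 12.93, 12.77 and 12.86 in its input (0.24 ± 0.097, adjusted p = 0.0506). Neither pair of groups overlapped, and the difference of -0.58 ± 0.137 passed (adjusted p = 0.00441). The miR-199a-5p call missed the threshold after quantile normalization (adjusted p = 0.134), and the miR-424-3p value passed it after cyclic loess (adjusted p = 0.0111). The dimmer U2AF2 probe was lower in both pull-downs (-1.10 and -0.53). U2AF1 passed neither test by its brightest probe (0.25 and -0.38) and was lower in both on its second probe (-0.44 and -0.89), and U2AF1L4 lay at levels of 7.75 to 8.01 with fold changes of -0.00 and -0.02.

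The PRPF genes had medians of -0.07 and -0.26 over 9 genes, with 3 lower and 2 higher with miR-199a-5p and 4 lower and 2 higher with miR-424-3p. Over all genes the shares were 20.1% lower and 29.9% higher with miR-199a-5p, and 25.7% and 30.3% with miR-424-3p. PRPF19, a ubiquitin ligase of the activated spliceosome, had levels of 11.13, 10.97 and 11.22 in the miR-199a-5p pull-down, against 11.17, 11.22 and 10.97 in its input (-0.01 ± 0.114, limma adjusted p = 0.93). With miR-424-3p the pull-down arrays had 12.23, 12.12 and 12.01, against 11.00, 11.14 and 11.38 in its input (0.94 ± 0.114, adjusted p = 7.96e-06). Its miR-199a-5p groups interleaved and its miR-424-3p groups lay apart, with a difference of -0.96 ± 0.161 (adjusted p = 0.000359). Among the proteins of the U4/U6.U5 particle, PRPF4 was lower in both (-0.33 ± 0.103 and -1.01 ± 0.103, difference 0.67 ± 0.146), PRPF6 was lower in both at a dim level (-0.62 ± 0.09 and -0.40 ± 0.09), PRPF3 was higher only with miR-199a-5p (0.39 and -0.15), and PRPF31 passed neither test (-0.14 and -0.26). PRPF8, the scaffold of the catalytic centre and the brightest of the class, had 13.80, 13.29 and 13.46 in the miR-199a-5p pull-down, against 12.93, 13.15 and 13.27 in its input (0.40 ± 0.131, adjusted p = 0.019), and 13.24, 13.29 and 13.27 in the miR-424-3p pull-down, against 12.74, 13.08 and 12.91 in its input (0.35 ± 0.131, adjusted p = 0.0341). The PRPF8 groups came close without overlapping, and each call was lost when certain single arrays were left out (adjusted p up to 0.1 for miR-199a-5p and up to 0.131 for miR-424-3p). PRPF38A was lower in both on its brighter probe (-0.49 and -0.55) and only with miR-424-3p on the other (-0.00 and -0.27), PRPF38B was lower only with miR-424-3p (-0.03 and -0.61), and PRPF18, a factor of the second catalytic step, passed neither test (-0.07 and 0.14).

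The SR proteins bind exonic enhancers through RNA recognition motifs and carry arginine-serine tails. Of 12 genes, 3 were lower and 2 higher with miR-199a-5p, and 4 were lower and 3 higher with miR-424-3p, with medians of 0.03 and -0.17. Over all genes the shares were 20.1% lower and 29.9% higher with miR-199a-5p, and 25.7% and 30.3% with miR-424-3p. SRSF3 had levels of 9.59, 10.08 and 9.64 in the miR-199a-5p pull-down, against 11.06, 11.30 and 11.49 in its input, 2.86-fold lower (-1.51 ± 0.159, limma adjusted p = 2.95e-06). SRSF3 levels in the miR-424-3p pull-down were 10.72, 11.03 and 10.79, against 10.65, 11.17 and 10.98 in its input, which overlap (-0.09 ± 0.159, adjusted p = 0.637). The difference was -1.43 ± 0.225 (adjusted p = 0.000215). The second, dimmer SRSF3 probe was not called with miR-199a-5p (0.09) and was higher with miR-424-3p (0.60, adjusted p = 0.00124). Its difference of -0.51 also passed (adjusted p = 0.0406). SRSF8 was called in opposite directions, with 9.76, 10.05 and 9.59 in the miR-199a-5p pull-down, against 10.18, 10.30 and 10.42 in its input (-0.50 ± 0.114, adjusted p = 0.0022), and 10.89, 11.07 and 11.10 in the miR-424-3p pull-down, against 10.48, 10.47 and 10.39 in its input (0.57 ± 0.114, adjusted p = 0.000694). SRSF4 and SRSF6, which are alike in their domains, showed the reverse. SRSF4 had 13.11, 12.80 and 12.94 in the miR-199a-5p pull-down, against 12.45, 12.67 and 12.54 in its input (0.39 ± 0.11), and 12.04, 11.80 and 12.12 in the miR-424-3p pull-down, against 12.66, 12.46 and 12.55 in its input (-0.57 ± 0.11). SRSF6 had fold changes of 0.44 ± 0.0963 and -0.29 ± 0.0963, and the differences were 0.97 ± 0.156 for SRSF4 and 0.74 ± 0.136 for SRSF6 (adjusted p = 0.000416 and 0.00103). SRSF7 was higher only with miR-424-3p (0.07 and 0.81), as was SRSF11 (0.06 and 0.38), and SRSF12 was lower in both (-0.77 and -0.36). SRSF9, the brightest of the class, was lower only with miR-424-3p (-0.19 and -0.37), a call that quantile normalization did not keep (adjusted p = 0.0755). SRSF1, SRSF2, SRSF5 and SRSF10 passed neither pull-down test by their brightest probes, with fold changes between -0.23 and 0.20, and the second SRSF10 probe was lower with miR-199a-5p (-0.99 and -0.28).

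The HNRNP proteins coat nascent transcripts, and their 22 genes held 45 of the 115 probes. By gene, 7 were lower and 4 higher with miR-199a-5p, and 6 were lower and 6 higher with miR-424-3p, with medians of -0.06 and -0.01. Over all genes the shares were 20.1% lower and 29.9% higher with miR-199a-5p, and 25.7% and 30.3% with miR-424-3p. The miR-424-3p counts of this class lay near those shares. HNRNPA1 had levels of 7.64, 7.72 and 7.64 in the miR-199a-5p pull-down, against 9.11, 9.34 and 9.42 in its input (-1.62 ± 0.135, limma adjusted p = 4.09e-07), and 7.78, 7.80 and 7.72 in the miR-424-3p pull-down, against 8.50, 9.17 and 8.87 in its input (-1.08 ± 0.135, adjusted p = 1.22e-05). Both pull-downs lay near the bottom of the scale, where the transformation compresses differences, so the size of these folds is uncertain. Whether they are understated was not tested. A second HNRNPA1 probe of almost the same mean level (8.387 against 8.392) gave smaller values, -0.45 ± 0.147 with overlapping arrays (adjusted p = 0.018) and -0.28 ± 0.147, which was not called (adjusted p = 0.117). HNRNPA1 has close copies in the genome, and the probe of its pseudogene HNRNPA1P33 had -1.50 and -1.27, so signal of the copies cannot be told apart here. HNRNPA3 (-1.12 and -0.59) and the brighter probe of HNRNPH2 (-0.99 and -1.26) were also lower in both, as was that of HNRNPH1 (-0.59 and -0.68), a near-identical relative of HNRNPH2. The other probe of HNRNPH2 passed neither test (-0.22 and -0.22), and that of HNRNPH1 passed only with miR-424-3p (-0.37 and -0.48). By brightest probe HNRNPDL led the rises, with 11.54, 11.18 and 11.70 in the miR-199a-5p pull-down, against 10.20, 10.36 and 10.56 in its input (1.10 ± 0.133, adjusted p = 2.01e-05), and 10.72, 10.55 and 10.46 in the miR-424-3p pull-down, against 10.26, 10.37 and 10.15 in its input (0.32 ± 0.133, adjusted p = 0.0568). The arrays lay apart for both microRNAs, and the difference was 0.78 ± 0.188 (adjusted p = 0.00535). The second HNRNPDL probe was called in opposite directions, with 10.08, 9.83 and 9.79 in the miR-199a-5p pull-down, against 9.66, 9.45 and 9.70 in its input (0.30 ± 0.0995, adjusted p = 0.0223), and 8.96, 8.87 and 9.03 in the miR-424-3p pull-down, against 9.61, 9.58 and 9.61 in its input (-0.65 ± 0.0995, adjusted p = 7.23e-05). Its arrays lay apart in both, and both HNRNPDL probes stood higher with miR-199a-5p in the difference. HNRNPU was higher with miR-199a-5p by 0.88 ± 0.164, with 0.12 ± 0.164 for miR-424-3p on the same probe, whereas its second probe was higher in both (0.71 and 0.72). The difference of 0.76 on the brighter HNRNPU probe passed (adjusted p = 0.0204) and missed the threshold when the third miR-199a-5p input array was left out (adjusted p = 0.0525).

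Several HNRNP mRNAs were higher with miR-424-3p. HNRNPUL1 had 12.05, 12.24 and 12.42 in the miR-199a-5p pull-down, against 11.92, 11.77 and 11.47 in its input (0.52 ± 0.134, limma adjusted p = 0.00512), and 13.16, 13.37 and 12.99 in the miR-424-3p pull-down, against 11.97, 11.75 and 11.93 in its input, 2.45-fold higher (1.29 ± 0.134, adjusted p = 1.93e-06). The arrays lay apart in both, by more with miR-424-3p. HNRNPC, which binds uridine tracts, had 11.13, 10.97 and 11.06 in the miR-199a-5p pull-down, against 11.23, 10.96 and 11.40 in its input (-0.14 ± 0.148, adjusted p = 0.442), and 11.70, 12.02 and 11.49 in the miR-424-3p pull-down, against 10.70, 11.15 and 10.96 in its input (0.80 ± 0.148, adjusted p = 0.000382). Its second probe gave -0.07 and 0.65, and HNRNPCL3, a close copy of HNRNPC, gave -0.55 and 0.43. HNRNPL was higher in both (0.36 and 0.80), and HNRNPA2B1, the brightest of the class at levels of 13.90 to 14.75, was higher only with miR-424-3p, at 0.63 ± 0.117 against 0.07 ± 0.117 with miR-199a-5p. All 3 HNRNPA2B1 probes were called higher with miR-424-3p and none with miR-199a-5p, with differences of -0.55, -0.43 and -0.95 that each passed. By brightest probe, HNRNPD was higher only with miR-424-3p (0.03 and 0.26), HNRNPR (-0.57 and -0.03) and HNRNPAB (-0.23 and -0.00) were lower only with miR-199a-5p, and HNRNPH3 (-0.04 and -0.62) and HNRNPUL2 (0.31 and -0.35) were lower only with miR-424-3p. Other probes of some of these genes gave other calls. Both other HNRNPR probes were higher with miR-199a-5p, the direction opposite to the brightest probe. The second HNRNPD probe was lower with miR-199a-5p (-0.47 and 0.06), the second HNRNPH3 probe was lower in both (-0.36 and -0.69), and of the other HNRNPAB probes 1 was lower in both (-0.94 and -0.43) and 1 only with miR-199a-5p (-0.78 and -0.26). HNRNPA0, HNRNPA1L2, HNRNPF, HNRNPK, HNRNPLL and HNRNPM passed neither test by their brightest probes, with fold changes between -0.26 and 0.28, although a second HNRNPA1L2 probe (-0.39 and -0.25) and 2 of the 3 other HNRNPM probes (-0.24 and -0.30, -0.40 and -0.53) were lower in both.

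Different probes of one gene often gave different values. Of the 77 genes, 47 had 1 probe and 30 had several, and all probes of a gene had the same call in 13 of the 30 with miR-199a-5p and in 15 with miR-424-3p. The median range between the probes of a gene was 0.649 and 0.442 log2 units in those pull-downs. HNRNPK, which binds cytosine-rich RNA, was the widest case, with 0.01 and -0.26 on its brightest probe, -1.91 and -1.28 on the second and -1.62 and -1.40 on the third. On the second probe HNRNPK had 8.11, 8.51 and 8.19 in the miR-199a-5p pull-down, against 9.94, 10.33 and 10.27 in its input, and 8.47, 8.64 and 8.67 in the miR-424-3p pull-down, against 9.79, 10.10 and 9.74 in its input, with no overlap. Calls in opposite directions occurred in 2 genes with miR-199a-5p and in 1 with miR-424-3p. HNRNPR had -0.57 on its brightest probe and 0.42 and 0.48 on the others with miR-199a-5p, and the last of these was lost when certain single arrays were left out (adjusted p up to 0.0872). HNRNPUL1 had 0.52, -0.32, 0.03 and -0.15 on its 4 probes with miR-199a-5p and 1.29, 0.79, 0.51 and -0.28 with miR-424-3p, the last of these from a probe at levels of 7.65 to 8.11 that missed the threshold after quantile normalization (adjusted p = 0.0568). Which transcript each probe reads was not examined.

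**Figure D4:**
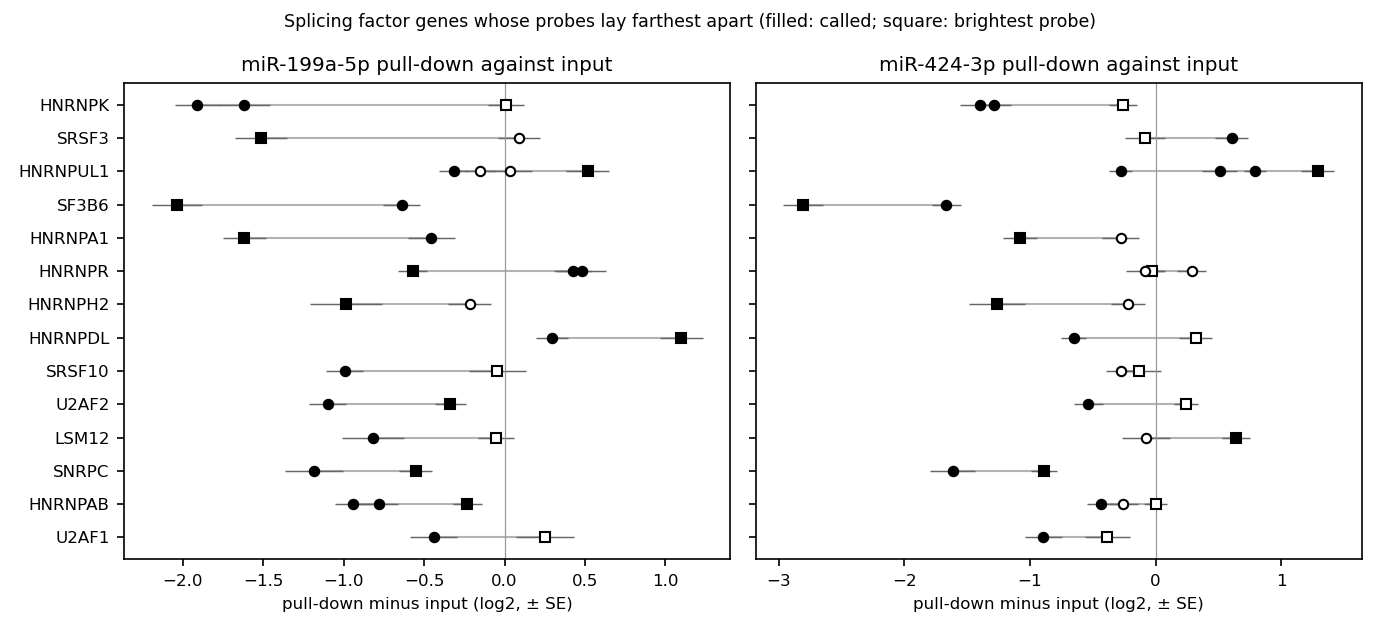
Log2 fold change of each probe (± SE) for the 14 splicing genes whose probes lay farthest apart, in the miR-199a-5p pull-down (left) and the miR-424-3p pull-down (right) against input, with filled symbols for called probes and squares for the brightest probe of a gene. HNRNPK spans 0.01 to -1.91 with miR-199a-5p, and HNRNPR and HNRNPUL1 have called probes on both sides of 0.

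Other genes of splicing, on a list of 114 of which 104 were measured, showed smaller shifts in their counts, a difference that was not tested. With miR-199a-5p, 25 (24.0%) were higher and 32 (30.8%) lower, against 29.9% and 20.1% of all genes, and with miR-424-3p 27 (26.0%) were higher and 35 (33.7%) lower, against 30.3% and 25.7%. Their medians were -0.01 and -0.07. With miR-199a-5p, SNRNP35, a protein of the minor spliceosome, was higher by 1.73 ± 0.175 (limma adjusted p = 4.89e-06), followed by RBFOX2, a tissue-specific splicing regulator, at 1.21, RBM39 at 0.93 and SNRNP48 at 0.87. TRA2A, an SR-like enhancer-binding protein, was lowest at -1.46 ± 0.131 (adjusted p = 7.34e-07), before SYF2 at -1.29, ALYREF, an mRNA export adaptor, at -1.29, and ZMAT5 at -1.22. With miR-424-3p, RBM39, an SR-like partner of U2AF2, was higher by 1.85 ± 0.165 (adjusted p = 5.03e-07), followed by GEMIN4, a member of the SMN complex that loads Sm rings, at 1.76, CHERP at 1.62, and RNPC3, a protein of the minor spliceosome, at 1.61. CLNS1A, a chaperone of Sm proteins, was lowest at -1.49 ± 0.132 (adjusted p = 5.49e-07), before MAGOH, a core protein of the exon junction complex, at -1.40, PLRG1 at -1.35 and SYF2 at -1.28.

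Gene length and level were weakly related to the fold changes. The splicing genes span a median of 15818 bases of the genome from start to end, introns included, against 28230 for all genes. Spearman's rho between that span and the fold change was 0.285 over the 77 genes and 0.202 over 9645 genes with miR-199a-5p, and 0.204 and 0.117 with miR-424-3p, and rho between the input level and the fold change was -0.117 and -0.0866 with miR-199a-5p, and -0.174 and -0.0948 with miR-424-3p. These are descriptions across genes of the same arrays, which are not independent replicates, and the part of length and level in the counts above was not tested.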

How the data were processed

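The authors deposited normalized log2 values for 15329 probes, made with lumi (version 2.2.1 in the submitters' processing notes) by background adjustment, a variance-stabilizing transformation and robust spline normalization. The transformation follows log2 for bright probes and compresses dim ones, whose folds can come out too small. A table of signals before normalization was left out, since the names of its 24 columns of values match no label. A legend in the study's supplement describes this array design as replicated independently and gives miR-199b-5p where the labels give miR-199a-5p. The labels were followed. No genome build of the array annotation is given in the sources used here.

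Of the probes, 12432 had 1 symbol, 2 had several and 2895 had none in the platform annotation, and 12430 were found in a RefSeq table (GRCh38.p14), which changed 0 symbols. limma (version 3.58.1, R 4.3.3) was fitted to all 12 arrays and 4 groups (lmFit, eBayes, 8 residual degrees of freedom). The pull-downs and their difference were tested one-sided in each tail and the inputs two-sided, with Benjamini-Hochberg adjustment over 15329 probes and a threshold of 0.05. The scripts were tested on simulated data with known changes.

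The members, classes and lists were chosen with earlier results of these data known. Named by rule were, by brightest probe, the 12 largest called changes each way in each pull-down whose arrays did not overlap, the 8 largest each way for the difference, the brightest gene of each class, genes with opposite calls, and 4 other splicing genes each way. Other members named were chosen after their values were seen. Alternatives were median scaling, cyclic loess, quantile normalization, array weights, a replicate block, two-sided tests, a fit of the compared groups alone, a mean of at least 9, a fold of at least 1.5 and the omission of single arrays. Protein lengths, transcript sequences and probe sequences were not used here.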

Additional observations from a re-analysis of the deposited data

Results flagged for a closer look

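The difference between the fold changes, miR-199a-5p minus miR-424-3p, passed its own limma test for 21 splicing probes in favour of miR-199a-5p. These were 18.3% of the 115, against 18.8% of all probes. In favour of miR-424-3p it passed for 28 (24.3%), against 18.0% of all probes. By gene it passed for 16 of 77 (20.8%) each way, against 20.9% and 18.1% of all genes. It is for that test that the following genes are listed again. Higher with miR-199a-5p were the U2 protein SNRPB2 by 1.13, the SF3B subunits SF3B3 by 1.12, SF3B1 by 0.87 and SF3B6 by 0.77, the Sm protein SNRPF by 1.02, the SR protein SRSF4 by 0.97, and HNRNPDL by 0.78 and HNRNPU by 0.76. Relatively higher with miR-424-3p were SNRPA of the U1 particle (-2.07), SRSF3 (-1.43), SF3B4 (-1.11), SRSF8 (-1.07), HNRNPCL3 (-0.98), PRPF19 (-0.96), HNRNPC (-0.94) and HNRNPUL1 (-0.77). The 8 genes of each direction were the largest of 16, by brightest probe. The SF3B1 difference missed the threshold after cyclic loess (limma adjusted p = 0.0506) and in most fits that left out 1 array (up to 0.082). That of HNRNPU missed it when the third miR-199a-5p input array was left out (0.0525). The second HNRNPU probe had nearly equal fold changes in both pull-downs. SF3B6 stands among the listed genes although it was lower in both pull-downs, and HNRNPUL1 although its brightest probe was higher in both. Other HNRNPUL1 probes included 1 called lower in each pull-down (-0.32 with miR-199a-5p, and another at -0.28 with miR-424-3p).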

How the results depend on the processing

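No count of calls moved by over 1.5 times under median scaling, cyclic loess, quantile normalization, two-sided tests, only the groups compared or a mean of at least 9. Array weights gave 32 probes higher with miR-199a-5p in the difference and 2 higher in the miR-199a-5p input. A fold of at least 1.5 left, with miR-199a-5p, 7 probes higher and 24 lower (6 and 13 genes), with miR-424-3p 16 higher and 29 lower (11 and 18 genes), and 17 probes higher with miR-424-3p in the difference. Leaving out 1 array gave 14 to 18 probes higher and 40 to 48 lower with miR-199a-5p (11 to 14 and 24 to 29 genes), 22 to 29 higher and 46 to 56 lower with miR-424-3p (14 to 21 and 28 to 33 genes), and 17 to 23 and 23 to 27 in the difference, and 0 in either direction between the inputs. Deviations of same-numbered samples correlated at -0.1 to 0.258 over the 6 pull-down and input pairs of one microRNA, 2 of them over 0.1, and at -0.1 to 0.514 over all 18 pairs of groups, 10 of them over 0.1. These correlations do not settle whether same-numbered samples belong together. The main fit had no block, and a fit with a replicate block is given beside it. The replicate block gave 19 probes higher and 48 lower for miR-199a-5p, 27 and 56 in the miR-424-3p comparison, and 23 and 29 in the difference. Of 1782 values of 86 named results under alternatives, 1711 kept direction and call, 59 lost the call, 12 gained it and 0 changed direction, and 63 results never changed. The median fold change of the 115 probes stayed at -0.19 to -0.08 (miR-199a-5p) and -0.27 to -0.20 (miR-424-3p). Normalization from signals before processing and a filter on detection p-values were not run, since those columns match no sample, nor was protein length. Dim probes limit what can be seen, since their folds are compressed.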

Other observations

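Proteins of the U11/U12 particle, which serves the minor class of introns, were on the list of other splicing genes and are picked out here after their values were seen. In the miR-199a-5p and miR-424-3p pull-downs SNRNP35 had fold changes of 1.73 ± 0.175 and 0.47 ± 0.175, and SNRNP48 had 0.87 ± 0.0926 and -0.16 ± 0.0926. RNPC3 had 0.00 ± 0.0952 and 1.61 ± 0.0952, and ZMAT5 was called in opposite directions, at -1.22 ± 0.107 and 0.41 ± 0.107. PDCD7 was higher in both (0.54 and 0.24), SNRNP25 was lower in both (-0.66 and -0.73), and ZCRB1 was lower only with miR-424-3p (0.06 and -0.40). The mRNAs of this particle thus did not move one way, and the test of the difference passed for SNRNP35, SNRNP48 and ZCRB1 in favour of miR-199a-5p and for RNPC3 and ZMAT5 in favour of miR-424-3p. SF1, which binds the branch point before U2 does, was likewise called in opposite directions, at -0.72 ± 0.105 and 1.06 ± 0.105, with a difference of -1.78 ± 0.149 (limma adjusted p = 1.41e-06).

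The 3 pseudogene probes set aside had fold changes of -1.50 and -1.27 (HNRNPA1P33), -0.69 and -0.42 (HNRNPA3P1) and 0.00 and 0.10 (HNRNPA1P10) with miR-199a-5p and miR-424-3p. The probes of HNRNPA1P33 and HNRNPA3P1 were called lower in both pull-downs, as HNRNPA1 and HNRNPA3 were by brightest probe.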
